A study of Mus musculus with 7 samples.

Results

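The liver removes the nitrogen of amino acids as urea and feeds their carbon into glucose and energy metabolism. These routes were followed here through 33 of their genes in livers of C3ar1 knockout and wild-type mice. The members were listed by symbol as enzymes of the urea cycle and of amino acid catabolism, with earlier results of these data known, and the probes that carry their symbols in the array's annotation were averaged per gene. Of the 33 genes 30 were measured, by 33 probes, out of 16462 genes measured in all. The glutaminase gene Gls2 and the serine dehydratase genes Sds and Sdsl have no probe under their symbols and were not analysed here. No member was removed for a low value.

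The study profiled liver RNA on 2-colour arrays, 1 mouse per array. The 3 knockout mice are C3ar1-/- (written C3ar (-/-) in the titles), without the receptor of complement fragment C3a, and the 4 wild-type mice were their littermates. Both genotypes ate a chow diet, and the RNA of each mouse was hybridised against 1 shared pool to which 6 wild-type mice gave liver RNA. Age, sex, strain, feeding state and the deleted part of the gene are not given in the sources used here. Wild-type livers are numbered 1 to 4 and knockout livers 2 to 4, as in the titles. Each value is a log ratio, taken as mouse over pool because each title puts the pool before the mouse and the second channel carries Cy5. The series' design text states a dye swap, and whether columns merge both dyes is not given, so the dye does not settle the direction. Base 10 was assumed, so that 0.301 would be a doubling, and neither base nor direction is given in the sources used here. If the direction were opposite, every sign would turn. A ratio says nothing of how abundant one gene's RNA is beside another's, and in a whole liver fewer cells of a type and less RNA per cell cannot be told apart.

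Ammonia from amino acids enters the urea cycle in the mitochondria of hepatocytes, and the cycle's enzymes are strongest in cells near the portal vein. Glutamine synthetase and ornithine aminotransferase are strongest in a thin layer of cells around the central vein, where ammonia that escaped the cycle is captured. Many of these genes are induced by glucagon and glucocorticoids, so that they follow feeding and stress.

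Across all arrays, knockout liver 2 had the widest spread over probes (SD 0.0975, against 0.0466 to 0.0676 on the others), and knockout liver 4 stood apart in macrophage markers. The probe of C3ar1 differed by 0.0329 ± 0.0233 (SE) between genotypes (limma, adjusted p = 0.872), and since the deleted part is unknown it checks neither labels nor direction. The 10 hepatocyte markers had per-mouse medians from -0.0399 to 0.0571, with single values as far as -0.322 (Cyp3a11 in knockout liver 2), and ratios cannot show that a tissue is liver. Precision is limited by having 7 arrays.

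The main comparison asked which of these genes differed with the loss of C3ar1. None of the 30 measured members passed (limma, Benjamini-Hochberg over 16462 genes, threshold 0.05, adjusted p from 0.872 to 0.997), where 0.00607% of all genes did, or 1 gene. At an unadjusted p under 0.05 limma listed 3 members, Oat and Mmut lower and Agxt higher in the knockouts, against 4.79% of all genes (2.02% higher, 2.76% lower). The genotypes did not overlap in 2 members, Oat and Mmut, against 5.38% of all genes, split into 2.77% higher and 2.61% lower. Set against these shares, neither count is a result about the 30 members. The members were evenly split, 15 higher and 15 lower, while 56.7% of all genes read higher in the knockouts. Their median difference was -0.00323 (-0.0294 without knockout liver 3 and 0.0226 without knockout liver 4), beside 0.00543 over all genes, and single members ranged from -0.200 for Oat to 0.201 for Tat. The median half-width of the unadjusted 95% intervals was 0.152 on the log scale, so smaller differences of a typical member could not be resolved with these mice. Adjustment over 16462 genes asks for more than that, and Oat, at -0.200, did not pass.

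**Figure D1:**
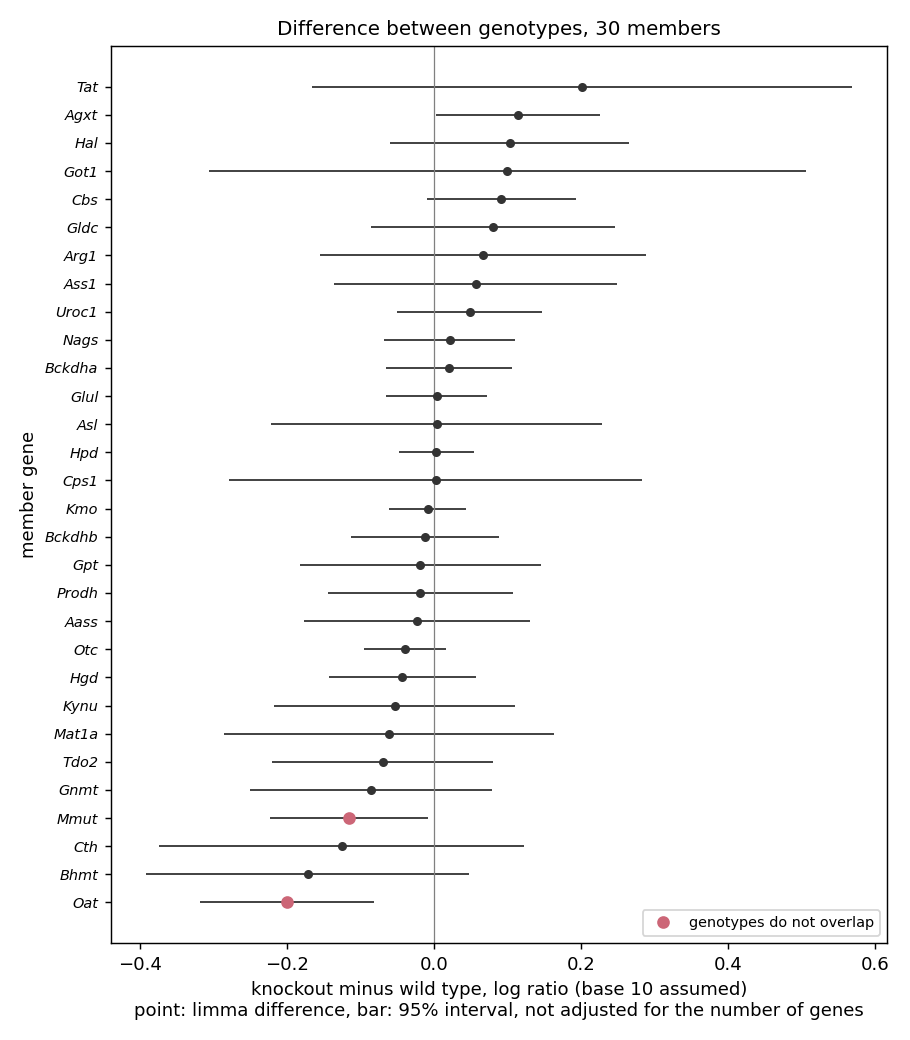
Difference between knockout and wild-type livers for each of the 30 members (horizontal axis, log ratio with base 10 assumed), with the limma difference as a point and its unadjusted 95% interval as a bar. Oat, at -0.200, and Mmut, at -0.116, are drawn in red because their genotypes did not overlap, and Got1 and Tat have the widest bars.

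Separation by genotype depended on which mice were included. Without wild-type liver 2 the members without overlap were 5, with Cbs, Got1 and Hal added to Oat and Mmut, where 9.3% of all genes were without overlap. Without knockout liver 2 they were 4, with Agxt and Bhmt added, against 10.2% of all genes. The members at an unadjusted p under 0.05 in limma were 6 without wild-type liver 2, against 4.4% of all genes, and 1, Oat, without wild-type liver 1, against 3.03%.

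In the urea cycle no gene passed, and in 5 of the 6 genes, all but Otc, the genotype difference was smaller than the SD within either genotype. Cps1 makes carbamoyl phosphate, the entry step, and Nags makes its activator. Cps1 gave -0.111, 0.208, -0.196 and -0.0339 in wild-type livers 1 to 4 and -0.268, 0.157 and 0.0176 in knockout livers 2 to 4. Each genotype held both a high and a low mouse, and the genotype means of -0.0332 ± 0.174 and -0.0311 ± 0.217 (SD) nearly coincided. Ass1, which joins citrulline to aspartate, gave -0.0732, 0.238, -0.107 and 0.0727 in the wild types and 0.123, 0.141 and 0.00465 in the knockouts. Arginase, encoded by Arg1, releases urea, and it gave 0.00700, 0.263, -0.120 and -0.0668 in the wild types and 0.148, 0.162 and -0.0487 in the knockouts. Wild-type liver 2 was the highest and wild-type liver 3 the lowest of the 7 in both Ass1 and Arg1. The lyase gene Asl was also highest in wild-type liver 2, at 0.237, and lowest in knockout liver 4, at -0.163.

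Otc and Nags did not share that order. Otc, which makes citrulline in the mitochondrion, gave -0.0153, -0.0368, 0.0354 and 0.0238 in the wild types and -0.0610, -0.0398 and -0.0110 in the knockouts. Its groups overlapped, and its difference was -0.0390 ± 0.0240 (SE; limma, adjusted p = 0.872), larger than the SD within each genotype. Nags stayed between -0.106 and 0.0370 in all 7 livers. The median over the 6 urea cycle genes was 0.222 in wild-type liver 2 and between -0.107 and -0.0374 in the other wild types. In the knockouts it lay between -0.00318 and 0.114, inside the wild-type range. The median difference of the 6 was 0.0125. Leaving out wild-type liver 2 gave 0.0811, and leaving out wild-type liver 3 gave -0.00866.

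**Figure D2:**
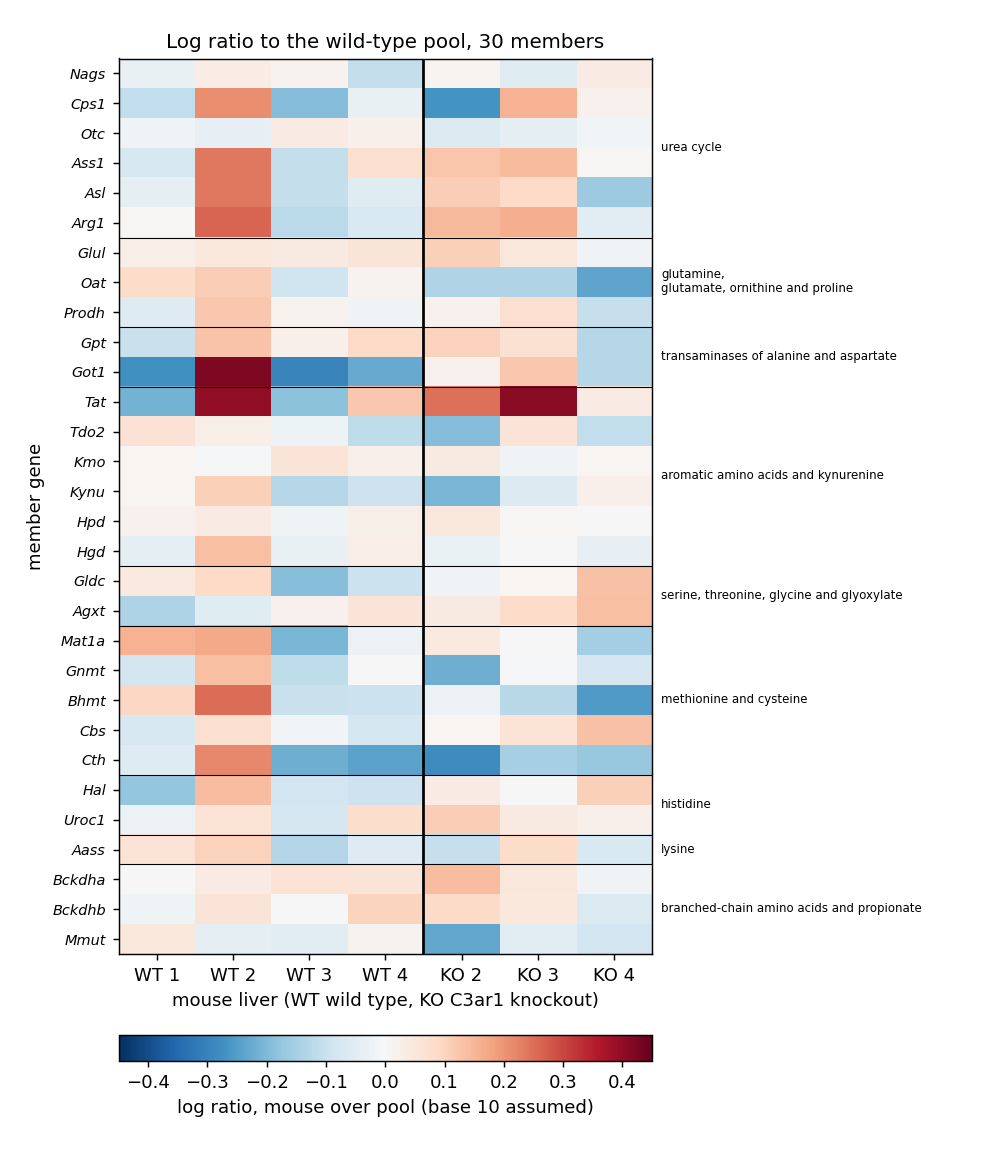
Log ratio to the wild-type pool (colour, base 10 assumed) of the 30 members, in rows ordered by role, in the 7 livers, in columns. Wild-type liver 2 is red in Cps1, Ass1, Asl, Arg1, Got1 and Tat (0.208 to 0.421), and Oat is blue in all 3 knockout livers.

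Oat had the smallest p of all members. Ornithine aminotransferase, its product, converts ornithine to a precursor of glutamate and proline. Wild-type livers 1 to 4 gave 0.0811, 0.111, -0.0888 and 0.0161, and knockout livers 2 to 4 gave -0.137, -0.136 and -0.238. Every knockout value lay below every wild-type value. The means were 0.0299 ± 0.0885 and -0.170 ± 0.0585 (SD), a difference of -0.200 ± 0.0507 (SE), or 1.59-fold lower in base 10, with an unadjusted 95% interval from 1.21 to 2.08. This did not pass over all genes (limma, adjusted p = 0.872). The difference lay between -0.240 and -0.166 when any 1 mouse was left out, while the groups overlapped after quantile or scale normalization. The promoter of Oat is shown because Oat had the smallest p of the members. The sequence is the 250 bases before the annotated start at chr7:132576399-132576648 (RefSeq, GRCm38.p6, minus strand), with capitals marking a match to TTNNGNAA, a loose form of the site of C/EBP factors.
Oat: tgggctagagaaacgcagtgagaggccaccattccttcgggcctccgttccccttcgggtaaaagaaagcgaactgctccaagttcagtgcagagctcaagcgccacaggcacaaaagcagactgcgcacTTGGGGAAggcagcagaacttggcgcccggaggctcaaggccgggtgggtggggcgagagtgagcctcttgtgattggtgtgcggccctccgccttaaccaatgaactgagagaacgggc

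The other genes of glutamine and proline differed little. Glul, glutamine synthetase, with its 2 probes averaged, was the steadiest member among wild types, at 0.0293, 0.0462, 0.0394 and 0.0597 (wild-type SD 0.0128). Knockout livers 2 to 4 gave 0.109, 0.0495 and -0.0164 for it, on both sides of the wild types. Its 2 probes gave differences of -0.00485 and 0.0122, opposite in sign and small. Taken singly they were less steady, from 0.0673 to 0.133 and from -0.0133 to 0.0228 in the wild types. In knockout liver 2 they read 0.201 and 0.0171. Prodh, which opens proline breakdown, was highest in wild-type liver 2 (0.121) and lowest in knockout liver 4 (-0.105), with a difference of -0.0188 between genotypes.

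Got1 and Tat varied most among the wild types. Got1, the cytosolic aspartate aminotransferase that supplies aspartate to the urea cycle, gave -0.277, 0.421, -0.298 and -0.226 in wild-type livers 1 to 4. The knockouts gave 0.0201, 0.123 and -0.129, between wild-type liver 2 and the other wild types. Of all genes measured, only 0.121% had a larger SD among wild types than its 0.345. The genotype difference of 0.0996 ± 0.174 (SE) did not pass (limma, adjusted p = 0.911), and it ranged from 0.0320 without wild-type liver 3 to 0.272 without wild-type liver 2, never called. Gpt, the alanine aminotransferase, ranged from -0.127 in knockout liver 4 to 0.127 in wild-type liver 2 and differed by -0.0186 between genotypes.

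Tat, tyrosine aminotransferase, opens tyrosine breakdown and is a classical target of glucocorticoids and glucagon. It gave -0.212, 0.398, -0.186 and 0.122 in the wild types and 0.249, 0.407 and 0.0375 in the knockouts. Knockout liver 3 and wild-type liver 2 were nearly equal at the top, and the groups overlapped. The difference was 0.201 ± 0.158 (SE; limma, adjusted p = 0.872), the largest toward higher values among members, and ranged from 0.113 without knockout liver 3 to 0.323 without wild-type liver 2. Igfbp1, which glucocorticoids and fasting induce and which was chosen after its values were seen, read -0.194, 0.413, -0.399 and 0.0876 in the wild types and 0.146, 0.314 and -0.0320 in the knockouts. As in Tat, wild-type liver 2 and knockout liver 3 were its top values. Igfbp1 belongs to a list of genes of fasting and glucocorticoid response. In that list wild-type liver 2 was the highest of all livers in Igfbp1 alone. It was the lowest in Pck1, Angptl4, Pdk4, Lcn2 and Irs2. Among the wild types alone it was also highest in Fkbp5, Tsc22d3 and Per1. Its median over the list was 0.0475, within the wild-type range of -0.0071 to 0.0502. What part feeding or stress had in Tat or Igfbp1 was not tested. The promoters of Tat and Got1 are shown as those of the most variable members, a choice made after their values were seen. They are the 250 bases before the start at chr8:109990186-109990435 (plus strand) and chr19:43524606-43524855 (minus strand) in GRCm38.p6 of RefSeq. The same motif is in capitals in Tat, while Got1 held no match to the motifs searched.
Tat: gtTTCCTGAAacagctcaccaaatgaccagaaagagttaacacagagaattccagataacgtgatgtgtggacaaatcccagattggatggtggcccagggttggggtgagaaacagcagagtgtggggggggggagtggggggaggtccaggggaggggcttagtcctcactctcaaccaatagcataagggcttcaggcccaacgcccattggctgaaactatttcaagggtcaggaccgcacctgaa
Got1: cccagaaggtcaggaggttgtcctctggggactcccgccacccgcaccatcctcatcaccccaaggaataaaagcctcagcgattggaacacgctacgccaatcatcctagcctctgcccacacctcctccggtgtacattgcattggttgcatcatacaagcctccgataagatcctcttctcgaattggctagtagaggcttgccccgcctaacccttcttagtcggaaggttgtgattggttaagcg

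**Figure D3:**
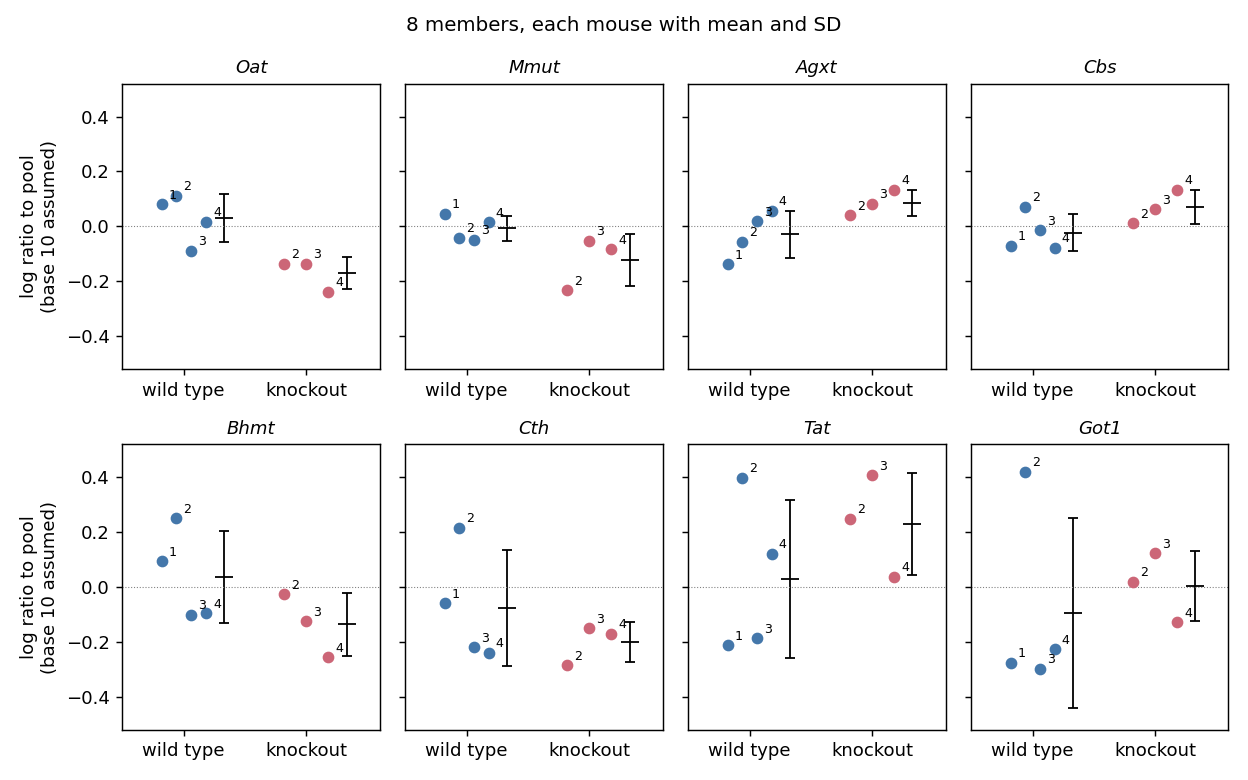
Log ratio to the pool (vertical axis, base 10 assumed) of 8 members in each mouse, with the number of the liver beside each point and the mean with SD of each genotype as a black bar. The 3 knockout values of Oat and Mmut lie below all 4 wild-type values, while in Got1 wild-type liver 2, at 0.421, stands far above the other wild types.

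The remaining genes of aromatic amino acids were close to the pool or overlapped widely. Tdo2, the oxygenase that commits tryptophan to the kynurenine route, ranged from -0.195 in knockout liver 2 to 0.0640 in wild-type liver 1, and differed by -0.0700. Downstream, Kmo stayed between -0.0149 and 0.0574 in all mice, while Kynu ranged from -0.204 in knockout liver 2 to 0.108 in wild-type liver 2. In tyrosine breakdown, Hpd stayed between -0.0183 and 0.0512. Hgd, which opens the aromatic ring, was highest in wild-type liver 2 (0.135) and otherwise lay between -0.0438 and 0.0285. The median over the 6 genes of this group was 0.00570 or less in size in each knockout liver.

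Agxt and Gldc both read higher in the knockouts without passing. Agxt detoxifies glyoxylate by making glycine from it. Wild-type livers 1 to 4 gave -0.138, -0.0556, 0.0194 and 0.0571 for Agxt and knockout livers 2 to 4 gave 0.0401, 0.0828 and 0.134. Only wild-type liver 4 exceeded the lowest knockout. The difference was 0.115 ± 0.0479 (SE), 1.30-fold in base 10 (limma, adjusted p = 0.872), and stayed between 0.0786 and 0.144 with any 1 mouse left out. Gldc, a part of the glycine cleavage system, was lowest in wild-type liver 3 (-0.192) and highest in knockout liver 4 (0.131), and differed by 0.0798. The promoter of Agxt is shown because Agxt was among the 3 members of smallest p, with Oat and Mmut. No promoter sequence of Mmut was in the sources used here. The Agxt stretch lies at chr1:93134990-93135239 (plus strand, RefSeq GRCm38.p6) and held no match to the motifs searched.
Agxt: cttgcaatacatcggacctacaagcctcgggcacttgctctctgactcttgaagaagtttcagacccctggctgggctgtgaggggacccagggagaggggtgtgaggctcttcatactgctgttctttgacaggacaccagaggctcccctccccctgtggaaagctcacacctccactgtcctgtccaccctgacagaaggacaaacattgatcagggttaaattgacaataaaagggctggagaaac

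Of the 5 genes of methionine and cysteine 4 read lower in the knockouts and Cbs read higher, and 0 passed. Bhmt, which remethylates homocysteine with betaine, gave 0.0932, 0.250, -0.102 and -0.0958 in the wild types and -0.0264, -0.124 and -0.255 in the knockouts. Wild-type livers 3 and 4 lay among the knockouts, and the difference was -0.172 ± 0.0942 (SE; limma, adjusted p = 0.872), with its 2 probes at -0.171 and -0.173. Cbs, which condenses homocysteine with serine, gave -0.0709, 0.0709, -0.0135 and -0.0774 in the wild types and 0.0104, 0.0627 and 0.133 in the knockouts. The single wild type among its knockout values was liver 2, and the difference was 0.0915 ± 0.0436 (SE; limma, adjusted p = 0.872). Cth, which releases cysteine in the next step, read the other way. It gave -0.0594, 0.216, -0.220 and -0.239 in the wild types and -0.284, -0.150 and -0.170 in the knockouts, a difference of -0.126 ± 0.106 (SE; limma, adjusted p = 0.872). That difference shrank to -0.0285 without wild-type liver 2. Gnmt, which consumes S-adenosylmethionine, gave -0.0842, 0.137, -0.115 and -0.0008 in the wild types and -0.221, -0.00800 and -0.0758 in the knockouts, with a difference of -0.0857 ± 0.0707 (SE), which was -0.0261 without knockout liver 2. With any 1 mouse left out Bhmt ranged from -0.226 to -0.101 and Cbs from 0.0593 to 0.123. Mat1a, which makes S-adenosylmethionine, split the wild types, at 0.158 and 0.172 in livers 1 and 2 and -0.206 and -0.0275 in livers 3 and 4, and all knockouts lay inside that range.

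Histidine breakdown begins with Hal and goes on through Uroc1. Hal gave -0.174, 0.138, -0.0864 and -0.0945 in the wild types and 0.0386, 0.000500 and 0.107 in the knockouts. All knockouts lay above wild-type livers 1, 3 and 4 and below wild-type liver 2, with a difference of 0.103 ± 0.0696 (SE; limma, adjusted p = 0.872), which ranged from 0.0630 without wild-type liver 1 to 0.167 without wild-type liver 2. Uroc1 ranged from -0.0762 in wild-type liver 3 to 0.111 in knockout liver 2 and differed by 0.0489. Aass, which opens lysine breakdown, gave 0.0607, 0.103, -0.131 and -0.0565 in the wild types and -0.102, 0.0812 and -0.0670 in the knockouts. Its groups overlapped throughout, and its difference of -0.0235 ± 0.0661 (SE) turned to 0.0129 without wild-type liver 2 (limma, adjusted p = 0.943 with all mice). Uroc1 and Aass lie on chromosome 6, as C3ar1 does, at 32.5 and 99.7 Mb from it.

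In the branched-chain and propionate group Mmut was the member without overlap. Methylmalonyl-CoA mutase, its product, carries propionate carbon from valine, isoleucine, methionine and threonine into the citric acid cycle. Wild-type livers 1 to 4 gave 0.0465, -0.0419, -0.0495 and 0.0155 for Mmut and knockout livers 2 to 4 gave -0.232, -0.0527 and -0.0845. The groups did not overlap, though wild-type liver 3 and knockout liver 3 were only just apart. The difference was -0.116 ± 0.0462 (SE), 1.31-fold lower with an unadjusted 95% interval from 1.02 to 1.67 (limma, adjusted p = 0.872). Without knockout liver 2 it was -0.0613. The subunits of the branched-chain ketoacid dehydrogenase, Bckdha and Bckdhb, differed by 0.0206 and -0.0124. Both were lowest in knockout liver 4, at -0.0149 and -0.0666.

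Other genes of the branched-chain route read lower in the knockouts nearly throughout, again with 0 called by limma. Of 21 listed genes besides the members 19 were measured, and 18 of these read lower, with a median difference of -0.0594, where all genes had 0.00543. The exception was Bckdk, the kinase that inhibits the dehydrogenase. At an unadjusted p under 0.05 limma listed 6, all lower, where 2.76% of all genes were listed in that direction. Hibch, which frees hydroxyisobutyrate from its coenzyme A ester in valine breakdown, gave 0.0258, -0.0106, 0.0197 and -0.0498 in the wild types and -0.134, -0.0502 and -0.132 in the knockouts. The groups of Hibch were separated by a narrow gap, and its difference was -0.102 ± 0.0291 (SE; limma, adjusted p = 0.872). Hibadh, the dehydrogenase of the next step, differed by -0.0871 ± 0.0289 and Pcca, the propionyl-CoA carboxylase subunit upstream of Mmut, by -0.0748 ± 0.0253, both without overlap (SE; limma, adjusted p = 0.872). The other 3 genes at that level were Hsd17b10 (-0.182), Acat1 (-0.111) and Acad8 (-0.0671), named after their values were seen. The median of the list was between -0.0866 and -0.0203 in the knockouts and between -0.0161 and 0.0121 in the wild types. With any 1 mouse left out, the list's median difference stayed between -0.0805 and -0.0530.

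The other lists of the pathway held no called gene and smaller medians. Over all 102 measured genes of the 8 lists 53 read higher and 49 lower, 11 were at an unadjusted p under 0.05 in limma, against 4.79% of all genes, and 10 did not overlap, against 5.38%. Of those 10, 8 were lower, the direction of 2.61% of all genes. These counts include the branched-chain list described above, which held 6 of the 11 and 4 of the 8. Further genes of sulfur amino acids had 7 of 11 lower, with a median of -0.0359, which was -0.00426 without knockout liver 4. Among them Suox, the sulfite oxidase, gave -0.0216, 0.0175, -0.0166 and -0.0284 in the wild types and -0.0674, -0.0591 and -0.0742 in the knockouts. All knockout values of Suox lay below the wild types, at a difference of -0.0546 ± 0.0180 (SE; limma, adjusted p = 0.872). Further genes of aromatic amino acids had 7 of 11 lower (median -0.0377). That median was -0.00835 without wild-type liver 2 and -0.00919 after quantile normalization, and with array weights it was -0.00245. Pcbd1, which recycles the cofactor of phenylalanine hydroxylase, had the smallest p there and differed by -0.0452 ± 0.0195 (SE), while Ido2, Aadat and Gch1 had larger differences (-0.0722, -0.0668 and -0.0511), Ido2 and Gch1 being named after their values were seen.

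Further serine and glycine genes had 11 of 16 higher, with a median of 0.0228, which was 0.00682 without wild-type liver 1. Gcsh, which carries the glycine cleavage intermediate beside Gldc, differed by -0.0574 ± 0.0222 and Dmgdh, which demethylates the dimethylglycine that Bhmt makes, by -0.0843 ± 0.0308 (SE; limma, adjusted p = 0.872 for both). Sardh, the next demethylase, differed by 0.136 ± 0.0620 (SE) in the opposite direction, and by 0.0586 without knockout liver 2, where it read 0.307. Without that liver Gcsh differed by -0.0375. Further histidine and lysine genes had 5 of 7 higher. There Aldh7a1, a dehydrogenase of lysine breakdown, read lower without overlap, by -0.0504 ± 0.0178 (SE), and Ftcd, which ends histidine breakdown, differed by 0.121 ± 0.0590 (SE), or 0.0749 without wild-type liver 1. The median of that list was 0.0134, and 0.00415 without knockout liver 3. Further urea cycle, glutamate and proline genes had 9 of 12 higher and a median of 0.0112, which was 0.00223 without wild-type liver 1. Slc25a13, the aspartate and glutamate carrier that feeds the cycle, was nearly constant among wild types, at 0.0247 to 0.0378, and gave -0.0347, 0.0509 and -0.110 in the knockouts.

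Amino acid transporters read higher in 12 of 14 with a median of 0.0203, and 0 were at an unadjusted p under 0.05 in limma. With array weights that median was -0.00116, and 0.00303 without knockout liver 2. Among regulators 7 of 12 read higher, with a median of 0.0217 that turned to -0.0121 without knockout liver 2. Klf15, a transcription factor that promotes amino acid breakdown, gave -0.0238, 0.0082, -0.0063 and -0.0058 in the wild types and 0.0408, 0.0360 and 0.0359 in the knockouts. Its knockout values lay closely together above all wild types, with a difference of 0.0445 ± 0.0161 (SE), or 1.11-fold (limma, adjusted p = 0.872). The glucagon receptor gene Gcgr differed by 0.0736 ± 0.0349 (SE), and by 0.0337 without knockout liver 2, its highest at 0.142.

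The members varied more among wild-type livers than most genes did. Their median SD over the 4 wild types was 0.0943, beside 0.0332 over all genes, and 26 of 30 members exceeded that median. Of the 30 members 18, or 60.0%, lay above the 90th percentile of all genes. A wide spread was not particular to them. The median SD was 0.130 for genes listed near the portal vein, which include members, and 0.111 for genes of fasting and glucocorticoid response. It was 0.0985 for bile duct markers, 0.0718 for hepatocyte markers and 0.0424 for the other genes of the pathway lists. For 28 of 30 members the genotype difference was smaller than the range of the wild types, as it was for 93.0% of all genes. The exceptions were Oat and Mmut.

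**Figure D4:**
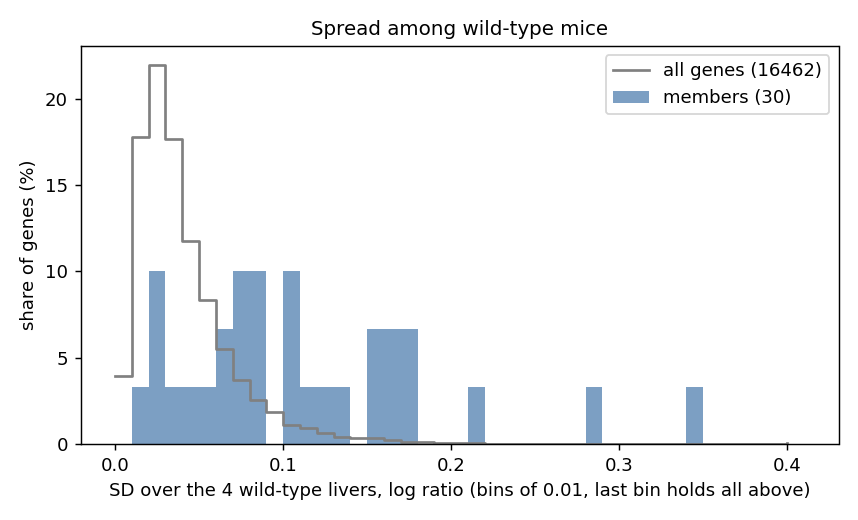
Share of genes (vertical axis, percent) by their SD over the 4 wild-type livers (horizontal axis, log ratio, bins of 0.01), for the 30 members as bars and all 16462 genes as a grey line. The members' median of 0.0943 lies right of the 0.0332 of all genes, and the bars farthest right are Cth, Tat and Got1.

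Wild-type liver 2 gave the highest of the 7 values in 16 of 30 members and the lowest in 0. Over all genes it was highest in 15.1% and lowest in 22.1%. Among the wild types alone it was highest in 21 of 30 members, against 25.1% of all genes, and wild-type liver 3 was lowest in 15, against 24.1%. The median over members was 0.110 in wild-type liver 2, -0.0229, -0.0813 and -0.00840 in wild-type livers 1, 3 and 4, and 0.0203, 0.0429 and -0.0274 in knockout livers 2 to 4. The knockout medians thus lay inside the wild-type range. Over all genes the medians of the 7 livers were within 0.0143 of 0. The labels do not say whether these wild-type mice also gave RNA to the pool.

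**Figure D5:**
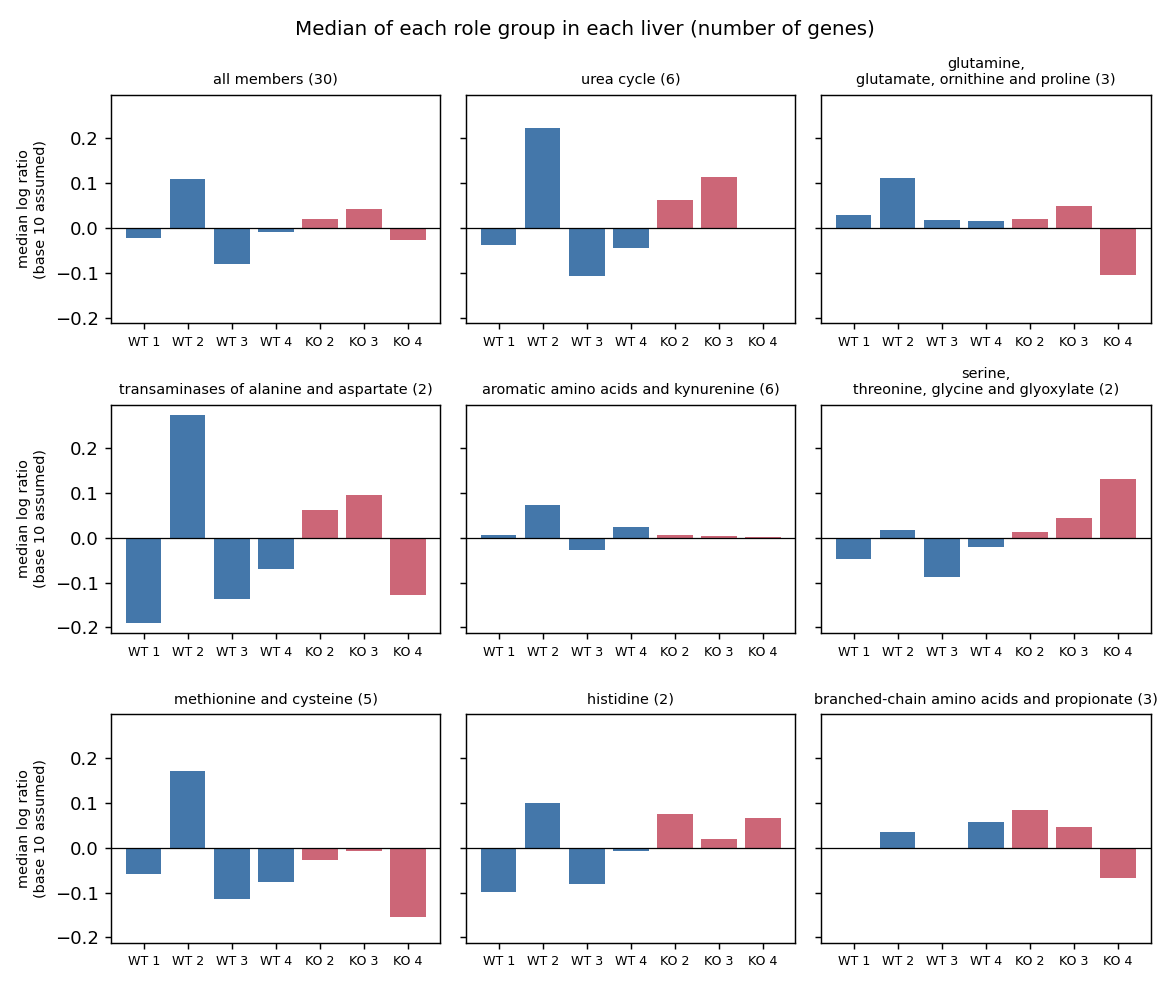
Median log ratio to the pool (bars, base 10 assumed) in each liver, for all members and for each role group with more than 1 measured gene, wild types in blue and knockouts in red. Wild-type liver 2 is the highest bar in the urea cycle (0.222), in the transaminases (0.274) and in methionine and cysteine (0.172).

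Genes known by their place in the liver lobule were set beside the members. Of 18 genes listed as strongest near the central vein, Oat and Glul included, 13 read lower in the knockouts, with a median difference of -0.0553 and 0 called by limma. Without overlap were 4, all lower, against 2.61% of all genes in that direction. They were Oat, the retinal dehydrogenase gene Aldh1a1 (-0.116 ± 0.0404), and Lgr5 (-0.0877 ± 0.0309) and Axin2 (-0.0679 ± 0.0241, SE; limma, adjusted p = 0.872 for each), the last 3 named after their values were seen. Lgr5 and Axin2 are Wnt targets. Glul, Tbx3 and Cyp1a2, which also depend on Wnt signalling, differed by 0.00367, 0.000192 and 0.0749. Rhbg, Cyp2e1 and Cyp7a1 of the same list differed by -0.0672, -0.0169 and -0.335 (all also named after their values were seen). The part of Wnt signalling in these values was not tested. The median of this list lay between -0.0812 and -0.0217 in the knockouts and between -0.00610 and 0.0411 in the wild types. With array weights the list's median difference was -0.0256. Of 17 measured genes listed as strongest near the portal vein, of which 7 are members, 15 read higher, with a median of 0.0537 and no gene without overlap. That median ranged from 0.0192 without wild-type liver 3 to 0.0796 without wild-type liver 2. Its per-mouse medians, from 0.00750 to 0.0386 in the knockouts, lay inside the wild-type range of -0.0762 to 0.0913. Genes of fasting and glucocorticoid response read higher in 12 of 15, with a median of 0.0424 that ranged from 0.0205 without wild-type liver 3 to 0.0895 without knockout liver 4. Their per-mouse medians ran from -0.0377 to 0.146 in the knockouts and from -0.00710 to 0.0502 in the wild types.

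Markers of other liver cells were read as a possible companion of these differences. All 11 measured markers of macrophages and Kupffer cells had higher means in the knockouts, though the mice overlapped, with per-mouse medians of -0.105 to 0.0984 in the knockouts and -0.194 to -0.0518 in the wild types. Endothelial markers were higher in 9 of 9, at 0.0154 to 0.0562 against -0.0341 to 0.0141. Stellate cell markers were higher in 7 of 8, at 0.0104 to 0.0429 against -0.0662 to 0.0116. Hepatocyte markers were higher in 8 of 10, with a median difference of 0.0307. Bile duct markers had a median of 0.148 in wild-type liver 2, the liver highest in most members, and -0.0515 to 0.0358 in all others. Median differences were 0.0112 for neutrophil, 0.00576 for lymphocyte, -0.0505 for red blood cell and 0.0194 for pancreas markers. The part of these cells in the members' values was not tested.

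Sequence motifs in the promoters were described for the 22 measured members found in the RefSeq table. Each window held 250 bases before and 50 after the start, and both strands were read. A member was counted once if any of its windows matched, while the share over all was counted by window, so the shares differ in unit. TTNNGNAA was present in 9 members, or 40.9%, and in 40.7% of all 32851 windows. TGACG, the core of the cyclic AMP response element, was present in 3, or 13.6%, against 20.8% of all windows, and in Oat it lay after the start. The full element TGACGTCA, which contains that core, was in 0 members and 1.79% of all windows. A loose form of the glucocorticoid receptor palindrome was in 1 member, Gnmt, and in 0.475% of windows, and the palindrome of HNF1 was in 0 members and 0.00913% of windows. A match describes letters only.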

How the data were processed

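Liver RNA of 7 mice was measured on 2-colour arrays. Per the labels' protocols, RNA came from spin columns with DNase and was labelled after aminoallyl amplification, Cy3 marking channel 1 and Cy5 marking channel 2. The authors deposited log10 ratios (base assumed from their spread) for 23574 probes, centred near 0. Medians over probes ranged from -0.0008 to 0.0075 in the wild-type columns and from 0.0054 to 0.0139 in the knockout columns. A dye swap is stated in the series' design text. Normalization, build and whether columns merge both dyes are not given in the sources used here, and base and direction stay unproven. The lowest correlation between arrays over genes was -0.235.

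Symbols came from the platform annotation, with current names taken from GRCm38.p6 (17724 probes matched by Entrez number, 21 by accession). There were 50 probes with several symbols and 5700 with none, both left out. Probes of a gene were averaged and limma 3.58.1 was run under R 4.3.3 (lmFit, eBayes without trend, two-sided), adjusted over 16462 genes. The same step was run on simulated independent normal values. These had no differences in spread between arrays, so that run cannot show how the step behaves on the real arrays. Values are printed in every mouse for members without overlap, the 10 of smallest p, the smallest p of each role group and the 3 of largest wild-type SD, and for some others. Members and lists were chosen with earlier results of these data known.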

Additional observations from a re-analysis of the deposited data

Results flagged for a closer look

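Among 63 sets of 4 wild-type values checked, 2 had a liver far from the others. Chance flags about 1 in 20 such sets. Got1 read 0.421 in wild-type liver 2, while the other wild types lay between -0.298 and -0.226. The median of the glutamine, glutamate, ornithine and proline genes was 0.111 in wild-type liver 2, against 0.0161 to 0.0293 in the others. It is a median of 3 genes, and the gene in the middle changed between livers. It was Glul in wild-type liver 1, Oat in livers 2 and 4 and Prodh in liver 3. None of these genes was flagged itself.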

How the results depend on the processing

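No member and no other gene of the pathway lists was called under any of the 16 alternatives run (27 of 30 members tested with the less variable genes left out), with the lowest adjusted p of a member between 0.606 and 0.9997. The members without overlap were 1 (Mmut) after quantile and after scale normalization, against 4.87% and 5.15% of all genes, and 2 to 5 with each mouse left out, against 7.27% to 15.2%. Members at an unadjusted p under 0.05 were 1 in the ordinary test, against 4.19%, and 1 to 6 with each mouse left out, against 3.03% to 7.06%. Aass turned to 0.0559 with array weights and ranged from -0.0788 to 0.0130 with each mouse left out, and the glycine transporter gene Slc6a9, at 0.0278, turned to -0.00495 with array weights and ranged from -0.00958 to 0.0478. Over all genes 0 to 3 were called with each mouse left out, 3 with the less variable genes left out, and 0 after scale normalization, in the ordinary test and with a replicate block. The replicate block in limma left 0 members called and 3 at an unadjusted p under 0.05 (Agxt, Bhmt and Oat, against 2.53% of all genes). Deviations from the genotype means correlated at -0.135, -0.209 and -0.129 in same-numbered mice. In differently numbered mice they correlated at -0.238 to 0.300. With so few mice these values cannot decide whether the numbers mark pairs. The numbers were not taken as pairs, and wild-type liver 1 has no partner. The cause was not tested. Signal over background was not analysed here, so dim probes could not be told apart from bright ones, and the number of mice limits what could be resolved.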
